A study of Mus musculus with 6 samples.

Results

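The 5 Ikaros family genes (Ikzf1, Ikzf2, Ikzf3, Ikzf4 and Ikzf5) and 5 further transcriptional regulators (Bcl11a, Bcl11b, Ebf1, Satb1 and Mn1) were followed by gene name through a table of 55487 mouse genes. All 10 were present. The table covered 6 RNA-seq libraries from mouse bone marrow, 3 labelled Mmrn1-low and 3 labelled Mmrn1-high long-term haematopoietic stem cells (LT-HSCs). Every library carried the genotype label "Mmrn1-GFP type", so both groups shared that allele and differed in Mmrn1 status, Mmrn1 encoding the secreted adhesive protein multimerin 1. Age, sex, the gates used for sorting and whether replicates came from separate mice were not given in the sources used here. The p-values therefore measure only how much these libraries varied among themselves, which could be technical variation.

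Ikaros family proteins are zinc finger transcription factors. Fingers near the amino terminus bind DNA, in Ikaros at sites with a GGGAA core. A pair of fingers at the carboxyl terminus lets family members bind one another. Ikaros, the product of Ikzf1, works in part through the NuRD chromatin remodelling complex and is needed for lymphoid development. Bcl11a is needed for B cell development and for silencing of embryonic and fetal globin genes, Bcl11b for T cell commitment, and Ebf1 for specification of the B lineage. Satb1 organises chromatin in thymocytes and early lymphoid progenitors, and Mn1 is a transcriptional coactivator known from meningioma and from acute myeloid leukaemia.

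A zinc finger of the DNA-binding part is shown first, because 4 of the genes share a similar one and their transcripts were counted separately. The coding sequence of the second match to the classical cysteine-cysteine-histidine-histidine zinc finger was read from GENCODE M21 transcripts (GRCm38). Each lay within 1 exon: Ikzf1 at chr11:11754024-11754086 (plus strand), Ikzf2 at chr1:69570581-69570643, Ikzf3 at chr11:98488940-98489002 and Ikzf4 at chr10:128640229-128640291 (all minus strand). Capitals mark the codons of the cysteines and histidines.
Ikzf1: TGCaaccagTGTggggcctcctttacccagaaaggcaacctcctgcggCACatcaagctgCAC
Ikzf2: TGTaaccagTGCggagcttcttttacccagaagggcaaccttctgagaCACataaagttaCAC
Ikzf3: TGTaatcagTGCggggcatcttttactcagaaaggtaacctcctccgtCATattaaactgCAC
Ikzf4: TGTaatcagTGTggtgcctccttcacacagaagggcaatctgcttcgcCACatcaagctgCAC
Over these 63 bases Ikzf1 was identical to Ikzf2 and to Ikzf3 at 81.0% of positions and to Ikzf4 at 84.1%. The pairs among Ikzf2, Ikzf3 and Ikzf4 were each identical at 76.2%. Ikzf5 had 4 finger matches of its own and was not aligned. Bcl11a and Bcl11b each held 6 finger matches, and the fifth is shown for the same reason, from chr11:24164972-24165034 (plus strand) and chr12:107915547-107915609 (minus strand).
Bcl11a: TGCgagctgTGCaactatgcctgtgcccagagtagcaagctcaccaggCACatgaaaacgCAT
Bcl11b: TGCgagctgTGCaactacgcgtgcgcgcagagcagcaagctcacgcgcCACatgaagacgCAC
This pair was identical at 84.1% of positions. No run of 50 bases was shared between transcripts of different genes within either family. The longest identical run in the Ikaros family was 32 bases, between Ikzf2 and Ikzf4, and that of the Bcl11 pair was 26 bases.

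Total counts per library ran from 11595104 to 30909990. A count of 3 corresponded to 0.0971 to 0.259 CPM (counts of the gene scaled to a common library total). The names of the groups were checked against markers. Mmrn1 itself was measured at 5.61 to 5.82 CPM in the Mmrn1-low and 8.82 to 11.5 CPM in the Mmrn1-high libraries (edgeR adjusted p = 4.85e-04, log2 fold change 0.82 ± 0.12). The 11 LT-HSC markers summed to 414 to 436 CPM and 655 to 693 CPM respectively, and 10 of them were higher. Cd34, Flt3 and Cd48, which LT-HSCs carry little of, summed to 586 to 610 CPM and 1501 to 1537 CPM. The 7 neutrophil progenitor markers, led by Mpo and Elane, summed to 23210 to 24479 CPM and 3426 to 3499 CPM. With transcripts of granulocyte progenitors this abundant the sums go against the label of pure LT-HSCs, so the libraries are called below by their Mmrn1 labels. Over all 15419 genes tested with edgeR's quasi-likelihood test (adjusted p under 0.05, Benjamini-Hochberg), 61.2% were called, 30.7% higher and 30.5% lower in Mmrn1-high, with a median log2 fold change of 0.01.

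Of the 10 regulators, 8 were higher in Mmrn1-high libraries, 0 were lower, and Ikzf3 and Ikzf5 were not called. The background share called higher was 30.7%. Ikzf4 and Bcl11b passed the filter on low counts only through the Mmrn1-high libraries, a filter that only a rise could meet. Of the other 8 genes, 6 were higher and 0 lower, beside 28.5% higher and 32.5% lower among all genes left by the same step. That step kept genes that passed only through the Mmrn1-low libraries. It therefore tilts this background towards falls (median log2 fold change −0.03), here and for the lists below. The 8 genes called also had every Mmrn1-high library above every Mmrn1-low library, an order that 34.1% of all tested genes showed (67.8% showed it in either direction). In 6 genes the log2 fold change was at least 1, against 11.3% of all genes called higher by that much. The median of the 10 was 1.45. Without genes that passed only through the Mmrn1-high libraries, a comparison added after seeing the data, 4 of 8 had a log2 fold change of at least 1, against 8.20% of the genes left, and the median was 1.17. In bulk RNA, a change in the share of cells that carry a transcript and a change in the amount per cell cannot be told apart.

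**Figure D1:**
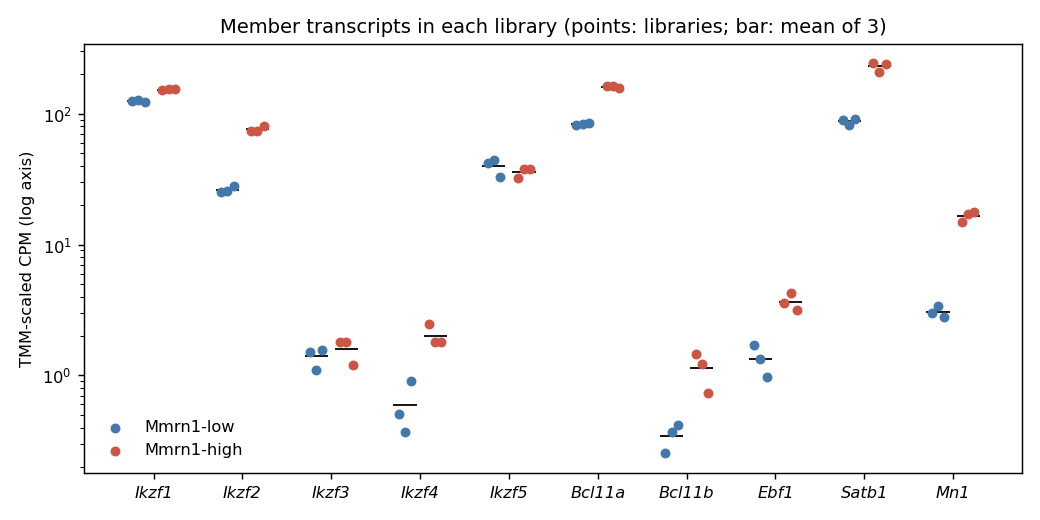
TMM-scaled CPM (log axis) of each gene in the 3 Mmrn1-low (blue) and 3 Mmrn1-high (red) libraries, with bars at the means. The red points lie above the blue ones for 8 genes and mix with them for Ikzf3 and Ikzf5, and 4 genes (Ikzf3, Ikzf4, Bcl11b and Ebf1) lie under 5 CPM in every library.

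Ikzf1, which encodes Ikaros, lies at chr11:11685003-11772926 (plus strand, GRCm38). Its CPM was 125, 127 and 122 in Mmrn1-low replicates 1 to 3 and 150, 153 and 153 in Mmrn1-high replicates 1 to 3. The groups did not overlap, and the libraries within each group lay within a few CPM of one another. The mean was 125 ± 2.39 CPM (SD, n = 3) in Mmrn1-low and 152 ± 1.57 CPM (SD, n = 3) in Mmrn1-high. The fold change was 1.22 (95% interval 1.16 to 1.28), the log2 fold change being 0.28 ± 0.03 (SE; edgeR adjusted p = 9.27e-05). It was the smallest change among the 8 called genes, and 4922 was its place when all tested genes were ranked from the largest rise down.

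Ikzf2 encodes Helios, a family member best known from T cells and regulatory T cells, and lies at chr1:69531214-69687245 (minus strand). It was measured at 25.2, 25.7 and 27.8 CPM in the Mmrn1-low libraries and 74.1, 73.7 and 80.2 CPM in the Mmrn1-high libraries. The groups were far apart relative to the spread inside them. The rise was 2.89-fold (95% interval 2.63 to 3.19), or 1.53 ± 0.06 (SE) on the log2 scale, with an edgeR adjusted p of 3.22e-07.

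Ikzf3 encodes Aiolos, which acts mainly in later B cell stages, and lies at chr11:98464902-98546031 (minus strand). It had 24, 15 and 45 counts in the Mmrn1-low and 22, 58 and 18 counts in the Mmrn1-high libraries. In CPM this was 1.52, 1.11 and 1.57 against 1.80, 1.79 and 1.21. Mmrn1-high replicate 3 lay below Mmrn1-low replicates 1 and 3, so the groups overlapped. The log2 fold change was 0.18 ± 0.24 (SE; edgeR adjusted p = 0.542), and the 95% interval of the fold, 0.777 to 1.65, left out the sizes measured for Ikzf2 and Ikzf4.

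Ikzf4 encodes Eos, a cofactor of Foxp3 in regulatory T cells, and is listed at chr10:128630843-128669358 (minus strand), while the GENCODE M21 record ends at 128645991. Counts were 8, 5 and 26 in the Mmrn1-low and 30, 58 and 27 in the Mmrn1-high libraries. The corresponding CPM values were 0.508, 0.369 and 0.906 against 2.45, 1.79 and 1.81. Mmrn1-low replicate 3 was the highest of its group and still lay below all Mmrn1-high libraries. The rise was 3.01-fold (95% interval 1.81 to 5.02), the log2 fold change being 1.59 ± 0.32 (SE; edgeR adjusted p = 0.00281).

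Ikzf5 encodes Pegasus, the most divergent member, and lies at chr7:131388652-131410521 (minus strand). Its CPM was 41.8, 44.3 and 32.5 in the Mmrn1-low libraries and 32.4, 37.5 and 37.9 in the Mmrn1-high libraries. The groups overlapped, with Mmrn1-low replicate 3 and Mmrn1-high replicate 1 almost equal and below the rest. The log2 fold change was −0.13 ± 0.12 (SE; edgeR adjusted p = 0.402), and the fold was 0.913 (95% interval 0.744 to 1.12). Without Mmrn1-low replicate 3 the gene was called lower, at −0.25 on the log2 scale (edgeR adjusted p = 0.0362). With library size as the only scaling the value was 0.02 (edgeR adjusted p = 0.916), so neither a direction nor a lack of change can be given. Of its exon bases, 84.5% overlap genes on the opposite strand, chiefly Pstk, and the strand setting used in counting was not given in the sources used here. Pstk was higher in Mmrn1-high (log2 fold change 0.31 ± 0.11, edgeR adjusted p = 0.0462).

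**Figure D2:**
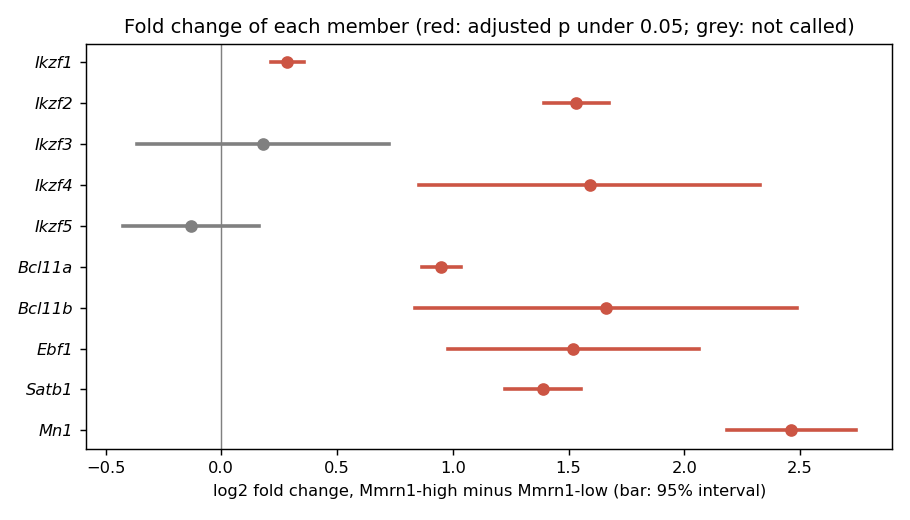
Log2 fold change (Mmrn1-high minus Mmrn1-low) of each gene with its 95% interval; red marks an adjusted p under 0.05 and grey the genes not called. The 8 red intervals lie right of 0, from 0.28 for Ikzf1 to 2.46 for Mn1, and the grey intervals of Ikzf3 and Ikzf5 cross 0.

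The composition of the Ikaros family was compared per length, on the FPKM scale (fragments scaled by exon length and by the library total). Ikzf1 gave most family transcripts in both groups. Its share was 66.6% ± 1.64 (SD, n = 3) in Mmrn1-low and 62.4% ± 0.943 (SD, n = 3) in Mmrn1-high libraries. The Ikzf2 share was 8.77% ± 0.830 (SD, n = 3) and 19.6% ± 0.689 (SD, n = 3), a difference of 10.8 percentage points. The Ikzf5 share was 23.5% ± 2.75 (SD, n = 3) and 16.5% ± 1.06 (SD, n = 3). On this scale Ikzf2 and Ikzf5 changed places, the Ikzf2 share being 8.27% to 9.73% in Mmrn1-low and 18.9% to 20.2% in Mmrn1-high libraries. Ikzf3 gave 0.854% and 0.749% of the family, and Ikzf4 0.284% and 0.734%. The family total was 16.4 ± 0.677 FPKM (SD, n = 3) and 23.6 ± 0.476 FPKM (SD, n = 3). FPKM leaves out the TMM factors (0.947 to 0.952 in Mmrn1-low, 1.05 to 1.06 in Mmrn1-high), which raises Mmrn1-high values relative to CPM. In TMM-scaled CPM per kilobase of exons with overlaps merged, the total was 31.1 and 39.7, a smaller relative rise. The groups did not overlap for the shares of Ikzf1, Ikzf2, Ikzf4 and Ikzf5 or for the FPKM total. Each of these gave p = 0.1 in the exact two-sided permutation test, the smallest p that 3 against 3 libraries allow, and Ikzf3 gave p = 0.5. The shares within a library are tied, because a gene that gains share leaves less for the rest, so they are not separate changes. Ikzf1 lost share although its CPM rose, and Ikzf5 lost share although it was not called.

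**Figure D3:**
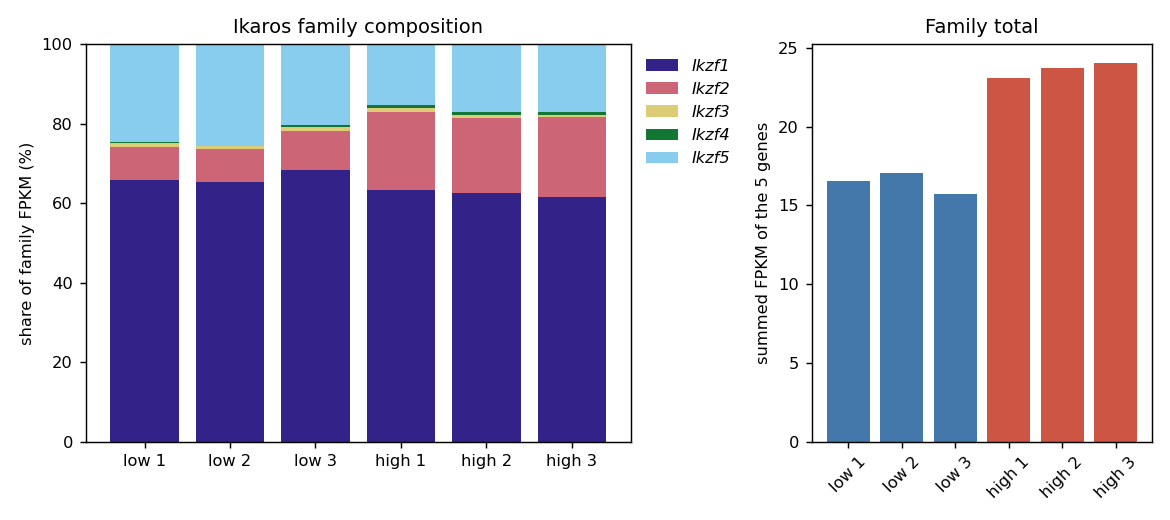
Left, the share (%) of each Ikaros family gene in the summed FPKM of the 5 genes, per library; right, that sum in FPKM. The Ikzf2 band is wider in all 3 Mmrn1-high libraries (18.9% to 20.2%) than in the Mmrn1-low ones (8.27% to 9.73%), and the total is higher in all 3.

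Both Bcl11 genes rose, from very different levels. Bcl11a lies at chr11:24078056-24174123 (plus strand). Its CPM was 81.1, 82.6 and 85.4 in the Mmrn1-low and 163, 162 and 157 in the Mmrn1-high libraries. The groups were separate and tight. The rise was 1.93-fold (95% interval 1.82 to 2.05), the log2 fold change being 0.95 ± 0.04 (SE; edgeR adjusted p = 2.50e-07). Bcl11b lies at chr12:107910403-108003602 (minus strand) and had 4, 5 and 12 counts in the Mmrn1-low and 18, 40 and 11 counts in the Mmrn1-high libraries. In CPM this was 0.254, 0.369 and 0.418 against 1.47, 1.23 and 0.737, so Mmrn1-high replicate 3 came nearest to the other group without reaching it. The rise was 3.16-fold (95% interval 1.79 to 5.60), the log2 fold change being 1.66 ± 0.36 (SE; edgeR adjusted p = 0.00406). Bcl11b made up 0.692% ± 0.152 (SD, n = 3) of the pair's FPKM in Mmrn1-low and 1.18% ± 0.360 (SD, n = 3) in Mmrn1-high libraries. That difference gave p = 0.2 in the exact two-sided permutation test.

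Ebf1, at chr11:44617317-45008091 (plus strand), was low in all libraries. It had 27, 18 and 28 counts in the Mmrn1-low and 44, 138 and 47 counts in the Mmrn1-high libraries, or 1.71, 1.33 and 0.975 CPM against 3.60, 4.25 and 3.15 CPM. The groups did not overlap. The rise was 2.87-fold (95% interval 1.97 to 4.18), the log2 fold change being 1.52 ± 0.23 (SE; edgeR adjusted p = 6.90e-04).

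Satb1, at chr17:51736187-51833290 (minus strand), was measured at 89.5, 82.0 and 91.2 CPM in the Mmrn1-low and 241, 208 and 240 CPM in the Mmrn1-high libraries. Mmrn1-high replicate 2 was lower than its group mates and far above the Mmrn1-low libraries. The coefficient of variation in Mmrn1-high was 8.28%, against 1.60% from counting alone. The rise was 2.62-fold (95% interval 2.34 to 2.94), the log2 fold change being 1.39 ± 0.07 (SE; edgeR adjusted p = 2.87e-06).

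Mn1, at chr5:111417362-111457033 (plus strand), rose the most of the 10 genes. It had 47, 46 and 80 counts in the Mmrn1-low and 182, 558 and 266 counts in the Mmrn1-high libraries. In CPM this was 2.98, 3.39 and 2.79 against 14.9, 17.2 and 17.8. The lowest Mmrn1-high library was several times above the highest Mmrn1-low library. The rise was 5.51-fold (95% interval 4.54 to 6.68; 1.27 in log2 on the log2(FPKM + 1) scale, which understates low genes), the log2 fold change being 2.46 ± 0.12 (SE; edgeR adjusted p = 9.82e-07). Among the 15419 tested genes it had rank 70 from the largest rise down.

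Levels of the 10 genes were ordered on the FPKM scale. In Mmrn1-low libraries Ikzf1 came first at 10.9 ± 0.195 FPKM (SD, n = 3), followed by Bcl11a at 4.43 ± 0.129 and Ikzf5 at 3.88 ± 0.602, whose ranges overlapped. Satb1 (2.51 ± 0.142), Ikzf2 (1.44 ± 0.0787) and Mn1 (0.391 ± 0.0393) came next with no overlap between neighbours. Ikzf3 and Ebf1 overlapped each other, as did Ikzf4 and Bcl11b below them, all at means under 0.2 FPKM. In Mmrn1-high libraries the order was Ikzf1 (14.8 ± 0.102 FPKM, SD, n = 3), Bcl11a (9.49 ± 0.234), Satb1 (7.29 ± 0.615), Ikzf2 (4.62 ± 0.212), Ikzf5 (3.90 ± 0.324) and Mn1 (2.36 ± 0.212). Below these came Ebf1 (0.329), then Ikzf3 and Ikzf4, which overlapped, then Bcl11b (0.113). Satb1 and Ikzf2 thus passed Ikzf5 in Mmrn1-high libraries. The deposited FPKM rests on a gene length that counts overlapping exons more than once, 1.07 times the merged exons for Mn1 and 2.04 times for Ikzf4. Per kilobase of merged exons, Bcl11a and Satb1 overlapped in Mmrn1-high libraries at 12.2 and 12.1 CPM per kilobase, as did Ikzf2 and Ikzf5 at 6.54 and 6.28, and Ikzf1 stayed first at 26.3. Ikzf4 (0.336) then lay above Ikzf3 (0.182) without overlap and overlapped Ebf1 (0.376), and Ikzf3 overlapped Bcl11b (0.141). In Mmrn1-low libraries Ikzf5 (6.91) then stood before Bcl11a (6.30), still overlapping it, and Ebf1 (0.137) and Ikzf4 (0.0991) overlapped.

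RefSeq promoter windows (GRCm38.p6, 250 bases before the start site) were searched for the Ikaros core GGGAA on both strands, because 8 of the genes moved the same way. Entries were found for 6 of the 10 genes, Ikzf1, Ikzf5, Bcl11a, Bcl11b, Ebf1 and Satb1, in 12 windows of which 5 belong to Satb1. Of the genes called higher, Ikzf2, Ikzf4 and Mn1 had no entry. A match was present in 9 of the 12 windows, against 56.2% of 32851 promoter windows of that length. Bcl11b, which was called higher, held no match. At least 1 window held a match in the other 5 of the 6 genes, among them Ikzf5, which was not called. That count by gene has no background here, and genes with more windows had more chances of a match. The windows are not independent: a pair of those of Satb1 overlap, and 4 windows (1 of Ebf1, 3 of Satb1) are wholly exon bases of their gene. Of the 4 windows with no exon base of their gene, 3 held a match, and a window of Ikzf1 did not. Shown are a window of Satb1, chr17:51833291-51833540 (minus strand), and one of Ebf1, chr11:44619978-44620227 (plus strand), neither of which holds an annotated exon base of its gene, with the matches in capitals (TTCCC is GGGAA on the other strand).
Satb1: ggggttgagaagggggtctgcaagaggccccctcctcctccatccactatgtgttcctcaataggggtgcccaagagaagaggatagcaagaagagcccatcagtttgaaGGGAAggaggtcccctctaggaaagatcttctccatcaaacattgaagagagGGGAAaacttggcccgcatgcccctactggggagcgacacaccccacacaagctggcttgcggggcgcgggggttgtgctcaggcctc
Ebf1: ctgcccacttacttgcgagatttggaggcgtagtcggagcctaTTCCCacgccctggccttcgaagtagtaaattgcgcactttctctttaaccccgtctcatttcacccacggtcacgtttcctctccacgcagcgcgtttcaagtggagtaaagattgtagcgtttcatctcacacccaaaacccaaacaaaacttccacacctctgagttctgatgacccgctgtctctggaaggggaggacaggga
A match describes these letters and is not evidence of binding.

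The corepressors through which Ikaros, Bcl11a and Bcl11b act were called about as often as other genes. Of 19 NuRD, Sin3 and CtBP genes, 5 were higher (26.3%, beside 30.7% of all genes), 6 were lower (31.6%, beside 30.5%) and the median log2 fold change was −0.03, beside 0.01 over all genes. Chd3, a remodelling ATPase of NuRD, rose from 110 ± 5.33 to 281 ± 9.40 CPM (SD, n = 3; log2 fold change 1.36 ± 0.04, edgeR adjusted p = 1.23e-07). Chd4, the other NuRD ATPase on the list, was at 744 ± 11.8 and 751 ± 10.5 CPM (SD, n = 3) and was not called (edgeR adjusted p = 0.662). Mta3 rose by 0.71 ± 0.07 (log2), and Sin3b, Ctbp1 and Hdac2 by 0.20, 0.14 and 0.14. Mbd3, a core NuRD subunit, fell by 0.52 on the log2 scale (edgeR adjusted p = 1.78e-05) and Gatad2a by 0.25. With library size as the only scaling, which raises the median of all genes by 0.15 on the log2 scale, the split of this list became 9 higher and 3 lower.

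Of 34 other lymphoid transcription factors, all tested, 18 were higher (52.9%, beside 30.7% of all genes) and 4 lower (11.8%, beside 30.5%), with a median of 0.27. Without 4 genes that passed the filter only through the Mmrn1-high libraries, 15 of 30 were higher and 4 lower, with a median of 0.20, beside 28.5% higher and 32.5% lower among all genes left by the same step. Bach2, a repressor of myeloid and plasma cell genes in lymphoid cells, rose from 1.40 ± 0.211 to 15.4 ± 2.12 CPM (SD, n = 3; log2 fold change 3.48 ± 0.16, edgeR adjusted p = 6.72e-07). Sox4, a factor of early B cell development, rose by 1.43 ± 0.03 on the log2 scale, though 54.6% of its exon bases overlap an opposite-strand gene. The 4 that fell were Gfi1, a repressor used in granulocyte and lymphoid development, from 240 ± 7.17 to 57.9 ± 2.70 CPM (SD, n = 3), Spi1 (PU.1), Myb and Zbtb7b, the regulator of CD4 lineage choice. Their log2 fold changes were −2.05, −0.71, −0.54 and −1.11.

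Of 20 early lymphoid progenitor genes, all tested, 19 were higher (95%, beside 30.7% of all genes) and 0 lower (beside 30.5%), with a median of 1.65. Without 4 genes that passed the filter only through the Mmrn1-high libraries, 16 of 16 were higher, with a median of 1.58. Among all genes left by the same step, 28.5% were higher and 32.5% lower. Dntt, the terminal transferase of antigen receptor assembly, rose from 101 ± 3.41 to 544 ± 9.68 CPM (SD, n = 3; log2 fold change 2.44 ± 0.03, edgeR adjusted p = 3.69e-09). Flt3, the receptor for Flt3 ligand that marks early lymphoid progenitors, rose from 156 ± 1.38 to 546 ± 4.32 CPM (SD, n = 3). Gpr171 and the adaptor Lax1 rose by 1.67 and 1.62 on the log2 scale. Cecr2 was not called at 0.81 ± 0.33 (log2; edgeR adjusted p = 0.0608).

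Genes that Ebf1 and Pax5 control in B cells were low. Of 18, 15 were tested, 9 were higher (60%, beside 30.7% of all genes) and 0 lower (beside 30.5%), with a median of 0.92. Without 5 genes that passed the filter only through the Mmrn1-high libraries, 6 of 10 were higher, with a median of 0.76. Among all genes left by the same step, 28.5% were higher and 32.5% lower. With a filter of 5 CPM or of 1 FPKM, 3 and 5 genes of the list were called higher. Over all genes these filters gave 3867 and 4770 higher and 3787 and 3019 lower, with FPKM as log2(FPKM + 1). How many list genes each filter left is not given here. Blnk, an adaptor of B cell receptor signalling, was at 3.46 ± 1.08 and 8.73 ± 0.996 CPM (SD, n = 3; log2 fold change 1.33 ± 0.20, edgeR adjusted p = 6.51e-04). The kinase gene Blk rose by 2.34 ± 0.37, and Cd72, with 41.6% of its exon bases under an opposite-strand gene, by 1.58 ± 0.09 (log2). Without Mmrn1-high replicate 3, 1 gene of the list, Fcrla, was called lower. B cell markers summed to 343 to 355 CPM and 349 to 360 CPM, 4 of the 7 tested being higher and 0 lower, and most of that sum was Ighm at 318 and 309 CPM. Their part in the Ebf1 result was not tested.

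Of 22 T lineage genes, beside Bcl11b, Satb1 and Ikzf2, 15 were tested. Of these, 12 were higher (80%, beside 30.7% of all genes) and 0 lower (beside 30.5%), with a median of 1.62. Without 5 genes that passed the filter only through the Mmrn1-high libraries, 7 of 10 were higher, with a median of 1.13. Among all genes left by the same step, 28.5% were higher and 32.5% lower. With a filter of 5 CPM or of 1 FPKM, 5 and 7 genes of the list were called higher. Over all genes these filters gave 3867 and 4770 higher and 3787 and 3019 lower, with FPKM as log2(FPKM + 1). The number of list genes left by each filter is not given here. Lck and Lat, which relay the T cell receptor signal, rose by 1.88 ± 0.07 and 1.85 ± 0.08 on the log2 scale (edgeR adjusted p = 2.89e-07 and 5.24e-07). Tcf7, a factor of T cell commitment, rose from 8.33 ± 0.840 to 25.5 ± 1.84 CPM (SD, n = 3), and Thy1 by 1.20 ± 0.09 (log2). Cd28, Cd6 and Cd8a were not called. Ptcra, the pre-T receptor chain, had 0 counts in all libraries, which allows up to 0.0971 to 0.259 CPM. T cell markers summed to 6.85 to 7.80 CPM in Mmrn1-low and 13.8 to 14.9 CPM in Mmrn1-high libraries, with 4 of 6 tested higher, and Cd3e had 2 to 23 counts per library. Regulatory T cell markers summed to 5.30 to 7.08 and 15.3 to 18.1 CPM, with both tested genes of 6 higher, while Foxp3 itself had 0 to 6 counts and Tigit at most 3 counts per library. The part of such cells in the Ikzf2, Ikzf4, Satb1 and Bcl11b results was not tested.

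Globin genes were examined beside Bcl11a. Of 10, 4 were tested: Hbb-bt rose from 47.2 ± 0.804 to 60.6 ± 3.11 CPM (SD, n = 3; log2 fold change 0.36 ± 0.05, edgeR adjusted p = 5.13e-04), and Hbb-bs and Hba-a2 were not called. Hba-a1 had a log2 fold change of −0.12 ± 0.04 (edgeR adjusted p = 0.0445), a call that ended in 14 of 17 alternatives. The embryonic genes Hbb-bh1, Hbb-y and Hba-x had 0 counts in every library, which allows up to 0.0971 to 0.259 CPM. Bcl11a was measured in every library of both groups, so these counts do not test its silencing of globin genes.

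Of 21 homeobox and stem cell genes linked with Mn1 in leukaemia, 20 were tested. Of these, 15 were higher (75%, beside 30.7% of all genes) and 1 was lower (5%, beside 30.5%), with a median of 0.92. Meis1, a homeobox cofactor of Hox proteins, rose from 33.2 ± 2.92 to 107 ± 2.09 CPM (SD, n = 3; log2 fold change 1.68 ± 0.07, edgeR adjusted p = 3.04e-07). Cd34, which encodes a surface protein of blood progenitors, rose by 1.26 ± 0.03 (log2). The gene that fell was the histone methyltransferase Dot1l (−0.25 ± 0.05, edgeR adjusted p = 0.00167), which was not called lower when library size was the only scaling. Ep300, Hoxb4, Pbx2 and Mef2c were not called. The lists share genes, Flt3 among them.

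**Figure D4:**
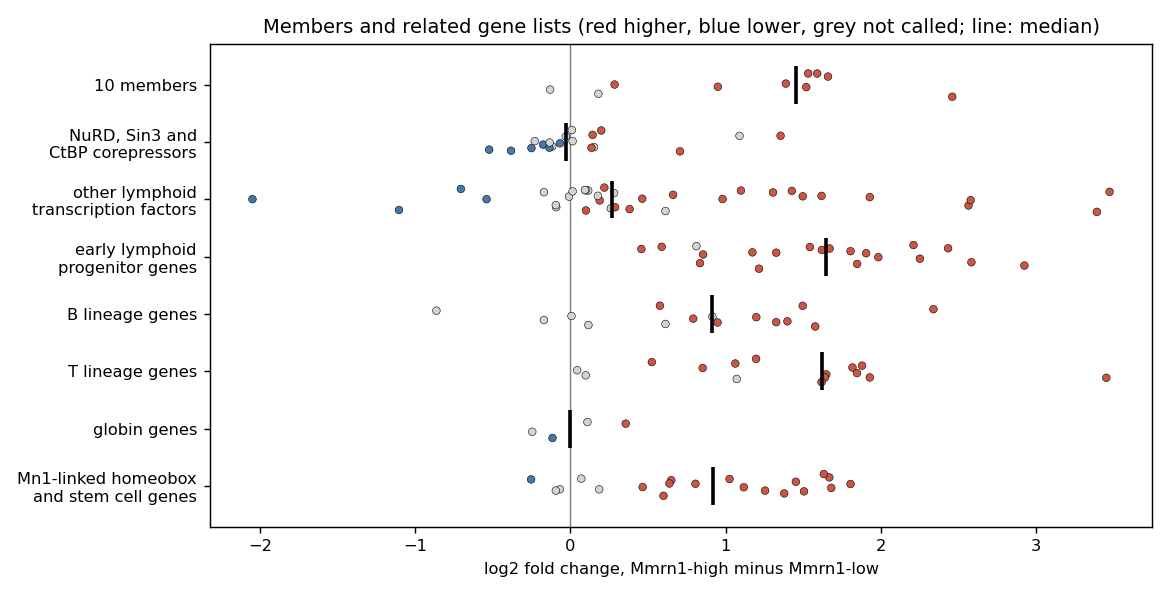
Log2 fold change (Mmrn1-high minus Mmrn1-low) of the 10 regulators and of each tested gene of 7 related lists; red is higher, blue lower, grey not called, and the black line is the median. The medians lie at 1.65 for early lymphoid genes, 1.62 for T lineage genes and 1.45 for the 10 regulators, and near 0 for the corepressors and globins.

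Markers of other cell types were also compared between the groups. Over all genes tested, 30.7% were called higher and 30.5% lower. Plasmacytoid dendritic cell markers, led by Runx2 and Tcf4, summed to 220 to 231 CPM in Mmrn1-low and 327 to 390 CPM in Mmrn1-high libraries, with 8 of 9 higher, and Bcl11a is also expressed in those cells. Macrophage markers, led by Vcam1 and Axl, summed to 158 to 161 CPM and 22.5 to 23.8 CPM, 9 of 9 lower, and the 7 neutrophil progenitor markers (Gfi1 among them) were all lower. Maturing neutrophil markers summed to 2961 to 3086 CPM and 4801 to 5123 CPM, 9 of 9 higher. Megakaryocyte markers summed to 105 to 110 CPM and 291 to 296 CPM, with 4 of 6 tested higher. Natural killer and innate lymphoid markers summed to 452 to 459 and 119 to 120 CPM, most of it Nkg7 (449 and 102 CPM), with 4 of the 6 tested higher and 1 lower. Plasma cell markers summed to 291 to 418 and 109 to 151 CPM (1 higher, 3 lower of 7 tested), erythroid markers to 347 to 350 and 384 to 392 CPM (2 higher, 3 lower of 8), mast cell and basophil markers to 224 to 249 and 265 to 328 CPM (4 higher, 1 lower of 7), and endothelial markers to 134 to 141 and 191 to 206 CPM (3 higher, 3 lower of 7 tested). No marker on these lists was at 0 in all libraries. The part of these cells in the results for the 10 regulators was not tested.

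**Figure D5:**
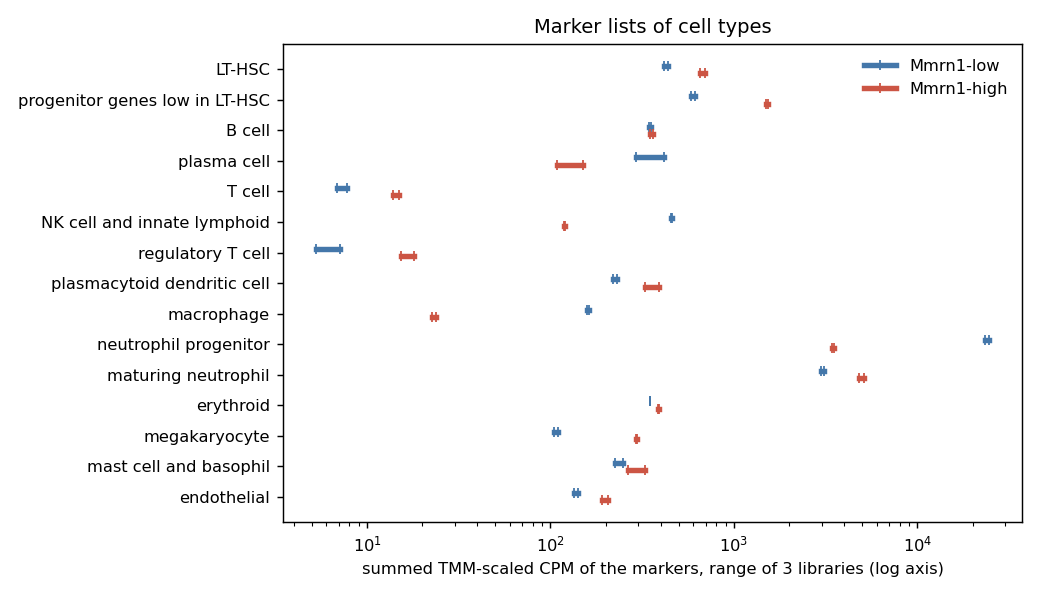
Range over the 3 libraries of the summed CPM (log axis) of each cell type's markers in Mmrn1-low (blue) and Mmrn1-high (red) libraries. Neutrophil progenitor and macrophage sums are lower in Mmrn1-high (3426 to 3499 and 22.5 to 23.8 CPM), while the T cell and regulatory T cell sums are higher and stay under 20 CPM.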

How the data were processed

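Poly-A RNA from 6 libraries was sequenced in pairs with a stranded kit, per the labels' protocols. Named in the submitters' processing notes are GRCm38, edgeR, StringTie, HISAT2 and CASAVA 1.8. Their roles, the strand setting and filters on low values were not given in the sources used here. The authors deposited 1 table with raw counts and FPKM per gene and library. In 97.8% of 8365 genes with at least 200 counts in every library, the length behind the deposited FPKM equalled the sum of distinct exon records (within 0.5%).

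The 10 genes and all lists were chosen with earlier results of these data known. Deposited counts were tested in R 4.3.3 with edgeR 4.0.16 (TMM factors, filterByExpr at 10 counts in a library of median total, robust quasi-likelihood F test), 3 against 3 libraries, with no covariate, and p-values were adjusted by the Benjamini-Hochberg method over 15419 genes. CPM is TMM-scaled, SE was derived as the size of the log2 fold change over the root of its F statistic, and intervals are at 95%. Floors of 3 counts cover counting error only, since reads without molecular identifiers are not independent molecules. The scripts were tested on simulated data. Alternatives used DESeq2 1.42.0, limma 3.58.1 (voom weights, and log2(FPKM + 1) or log2(FPKM + 0.1)), other scalings and filters, a replicate block and each library left out. All 10 genes are named; of each list, up to 4 genes with the smallest p and all genes of the short counts, except that some are not reported here; of each marker list, at most 2 genes with the highest mean. A few marker and neighbouring genes (Cd3e, Foxp3, Pstk) and Chd4, genes listed as not called, Fcrla, Ptcra and the embryonic globins were chosen after their values were seen. Promoters came from RefSeq and transcripts from GENCODE M21.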

Additional observations from a re-analysis of the deposited data

How the results depend on the processing

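The 8 regulators called higher stayed called under every alternative that could test them. The count was 5 with a filter of 5 CPM, with log2(FPKM + 1) and with log2(FPKM + 0.1). These filters left out Ikzf3, Ikzf4, Bcl11b and Ebf1. Mn1 passed them only through the Mmrn1-high libraries (Mmrn1-low 2.79 to 3.39 CPM and 0.357 to 0.434 FPKM). Its calls there are no separate support, since only a rise could meet these filters. The count lower was 0 in all but 1 alternative: leaving out each library gave 0 to 1, and the value of 1 is Ikzf5 without Mmrn1-low replicate 3. Its log2 fold change ran from −0.249 to −0.0428 over the libraries left out, and turned positive with library size alone (0.0175), log2(FPKM + 1) (0.0133, also unfiltered) and log2(FPKM + 0.1) (0.0180). Genes called lower numbered 4701, but 3019, 3011 and 3020 with log2(FPKM + 1), log2(FPKM + 0.1) and unfiltered FPKM. With library size alone, 6201 genes were higher (66.0% of calls, against 50.2%) and 3193 lower. List genes called lower numbered 12, but 7 with library size alone, log2(FPKM + 1) and log2(FPKM + 0.1), and 5 with unfiltered FPKM. T and B lineage genes called higher numbered 12 and 9, but 5 and 3 with the filter of 5 CPM and 7 and 5 with filtered FPKM. These filters leave fewer genes tested, and how many of each list they left is not given here. On the log2(FPKM + 1) scale, which understates low genes, Mn1 was 1.27, Ebf1 0.26, Ikzf4 0.17 and Bcl11b 0.11, against 2.46, 1.52, 1.59 and 1.66. Per kilobase of merged exons, chosen after seeing the data, the Ikzf2 share rose by 9.20 percentage points. The causes of these differences were not tested beyond the genes a filter removes.

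Same-numbered libraries did not deviate together from their group means (correlations 0.0426, −0.0785 and 0.0286). A small shared part could be hidden by counting noise, so this cannot decide whether the numbers pair the libraries. With the replicate block, 4476 genes were higher and 4447 lower, and of the 10 regulators 8 were higher and 0 lower. Counts limit Ikzf3, Ikzf4, Bcl11b and Ebf1, which had 4 to 138 per library.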
